A study of Mus musculus with 28 samples.

Results

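The angiopoietins, the angiopoietin-like proteins and the Tie receptors were examined in bone marrow niche cells of mice with and without a Flt3 internal tandem duplication. The 7 genes were listed by name, without a threshold on any value: the angiopoietins Angpt1 and Angpt2, the receptors Tek (also called Tie2) and Tie1, and the angiopoietin-like genes Angptl1, Angptl2 and Angptl4. All 7 were among the 25251 genes of the expression table. RNA was sequenced in 28 libraries from C57 BL6 mice aged 8 to 10 wk, either Flt3 +/+ (wild type) or homozygous for a Flt3-ITD knock-in, here called Flt3 ITD/ITD, in which every cell of the animal carries the allele. Endothelial cells (ECs) were sorted as CD45-Ter119-CD31+ and mesenchymal stromal cells (MSCs) as CD45-Ter119-CD31-CD166-Sca1+ from bone lining cells, with 100 cells and 5 libraries per genotype for each. Total bone marrow mononuclear cells (MNCs) were collected without such a sort, with 200 cells and 4 libraries per genotype, so that the number of cells per library cannot be told apart from the difference between MNCs and the other populations.

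Angiopoietins are secreted ligands of Tek, a receptor tyrosine kinase of endothelial cells. Angpt1 activates Tek and keeps vessels quiescent, whereas Angpt2, which endothelial cells store and release, can oppose Angpt1 or act as a weak activator, depending on the setting. Tie1 is a related receptor that binds no angiopoietin on its own and modulates Tek. In bone marrow, Angpt1 is known as a product of stromal and hematopoietic cells, and Tek is also found on hematopoietic stem cells. Angiopoietin-like proteins share the domain structure of angiopoietins but do not bind Tie receptors. Angptl4 inhibits lipoprotein lipase and is induced by fasting, PPAR ligands and hypoxia, Angptl2 is linked to inflammation and binds integrins and leukocyte immunoglobulin-like receptors, and Angptl1 is the least characterized of these.

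On GRCm38, Tek lies on chromosome 4 (94739289 to 94874976, plus strand), as does Tie1 (118471191 to 118490061, minus strand). Angpt1 lies on chromosome 15 (42424723 to 42676977, minus strand) and Angpt2 on chromosome 8 (18690263 to 18741562, minus strand). Angptl1 lies on chromosome 1 (156838562 to 156861078, plus strand), Angptl2 on chromosome 2 (33216069 to 33247717, plus strand) and Angptl4 on chromosome 17 (33773750 to 33781830, minus strand). Angpt2 lies inside Mcph1, Angptl1 inside Ralgps2 and Angptl2 inside Ralgps1, each on the opposite strand and without overlapping exons. Exons of Angpt1 overlap those of the antisense gene Gm17473, and exons of Angptl1 overlap those of Gm37802. Neither of these overlapping genes is in the table, and because the library method does not mark the strand, their reads could not be told apart from those of Angpt1 and Angptl1.

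Promoter sequence was matched by symbol for 4 of the 7 genes (Tek, Tie1, Angptl1 and Angptl2). The 250 bases before the RefSeq start are shown for Tek, the receptor highest in ECs, and for Angptl2, an MSC gene. The pair differs in population and in the 1 searched word that was found. The windows are RefSeq sequences on GRCm38.p6, both on the plus strand, chr4:94739039-94739288 for Tek and chr2:33215711-33215960 for Angptl2. The ETS word AGGAAG (or CTTCCT on the other strand) is in capitals.
Tek: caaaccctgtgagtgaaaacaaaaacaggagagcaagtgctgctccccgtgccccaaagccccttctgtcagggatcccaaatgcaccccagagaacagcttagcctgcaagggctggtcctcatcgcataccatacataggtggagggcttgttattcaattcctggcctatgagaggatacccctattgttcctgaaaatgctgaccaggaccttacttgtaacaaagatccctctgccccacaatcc
Angptl2: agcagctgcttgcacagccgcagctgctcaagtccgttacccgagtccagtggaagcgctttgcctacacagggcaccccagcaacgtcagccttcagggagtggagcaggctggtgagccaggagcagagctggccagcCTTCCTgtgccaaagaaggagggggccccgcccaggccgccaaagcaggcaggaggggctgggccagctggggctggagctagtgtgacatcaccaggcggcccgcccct
The word AGGAAG, 1 form of the sites of ETS factors such as Ets1, Fli1 and Erg, occurred 1 time each in the Angptl2 and Tie1 windows. It occurred 0 times in those of Tek and Angptl1. The shorter core GGAA, which the windows of Tek and Angptl1 hold on 1 strand or the other, was not counted. AGGAAG was present in 29.6% of all 32536 promoter windows of this length. The other words searched on both strands (GATA word AGATAA, FOXO word GTAAACA, hypoxia words ACGTG and GCGTG, and nuclear receptor word AGGTCA) had 0 matches in the 4 windows, against 10%, 3.2%, 16.7%, 28.3% and 14% of all windows. The windows precede RefSeq starts, which can differ from the gene starts given above. The Tek window ends directly before that start, but the Angptl2 window ends at 33215960 and the start given is 33216069. The Angptl1 window (156838773 to 156839022) and most of the Tie1 window (118489850 to 118490099) lie inside the gene spans given above. These counts describe letters in short windows and say nothing of binding.

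Levels are given as RPKM, the estimated read count scaled to transcript length and library total, so that genes can be compared with each other. Libraries held 6377013 to 33880743 counts. The 11 endothelial markers summed to between 2320 and 3330 RPKM in ECs and to at most 9.75 RPKM in MSCs, and the 12 mesenchymal markers to between 29300 and 33800 RPKM in MSCs and between 3690 and 6380 RPKM in ECs, where Ly6a, which ECs also express, made up most of the sum (3484.01 to 6136.4 RPKM) and Dcn (mean 11.5 RPKM), Lum (2.44 RPKM), Pdgfra (0.343 RPKM) and Col1a1 (0.165 RPKM) were low. Chondrocyte markers (953 to 5880 RPKM) and osteoblast markers (1210 to 9180 RPKM) were also present in MSCs, and pericyte and smooth muscle markers in ECs (195 to 1220 RPKM). Leukocyte markers, at 40800 RPKM or above in MNCs, reached 21300 RPKM in Flt3 ITD/ITD EC replicate 2, 1260 RPKM in Flt3 +/+ EC replicate 1 and 4750 RPKM in Flt3 ITD/ITD MSC replicate 5. Osteoblast markers reached 429 RPKM in Flt3 ITD/ITD EC replicate 5. Flt3 was listed at 2.53 to 6.96 RPKM in Flt3 +/+ MNCs and 6.91 to 14.81 RPKM in Flt3 ITD/ITD MNCs, and at no more than 1.37 RPKM in any EC or MSC library, and the gene count cannot show the duplication. Xist, the noncoding RNA of the inactive X chromosome, was at 6.22 to 16.86 RPKM in 6 libraries (Flt3 +/+ EC replicates 2 and 3, Flt3 ITD/ITD EC replicate 3, Flt3 +/+ MSC replicates 1 and 4, Flt3 ITD/ITD MSC replicate 4) and at 0.08 to 0.25 RPKM in the other 22. The Y-linked genes Ddx3y and Eif2s3y were at 0.47 RPKM or below in those 6 libraries and at 8.26 RPKM or above in the other 22, so the groups differ in X- and Y-linked RNA in a way that the labels, which give no sex, do not describe. Results that rest on these libraries are given with and without them.

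**Figure D1:**
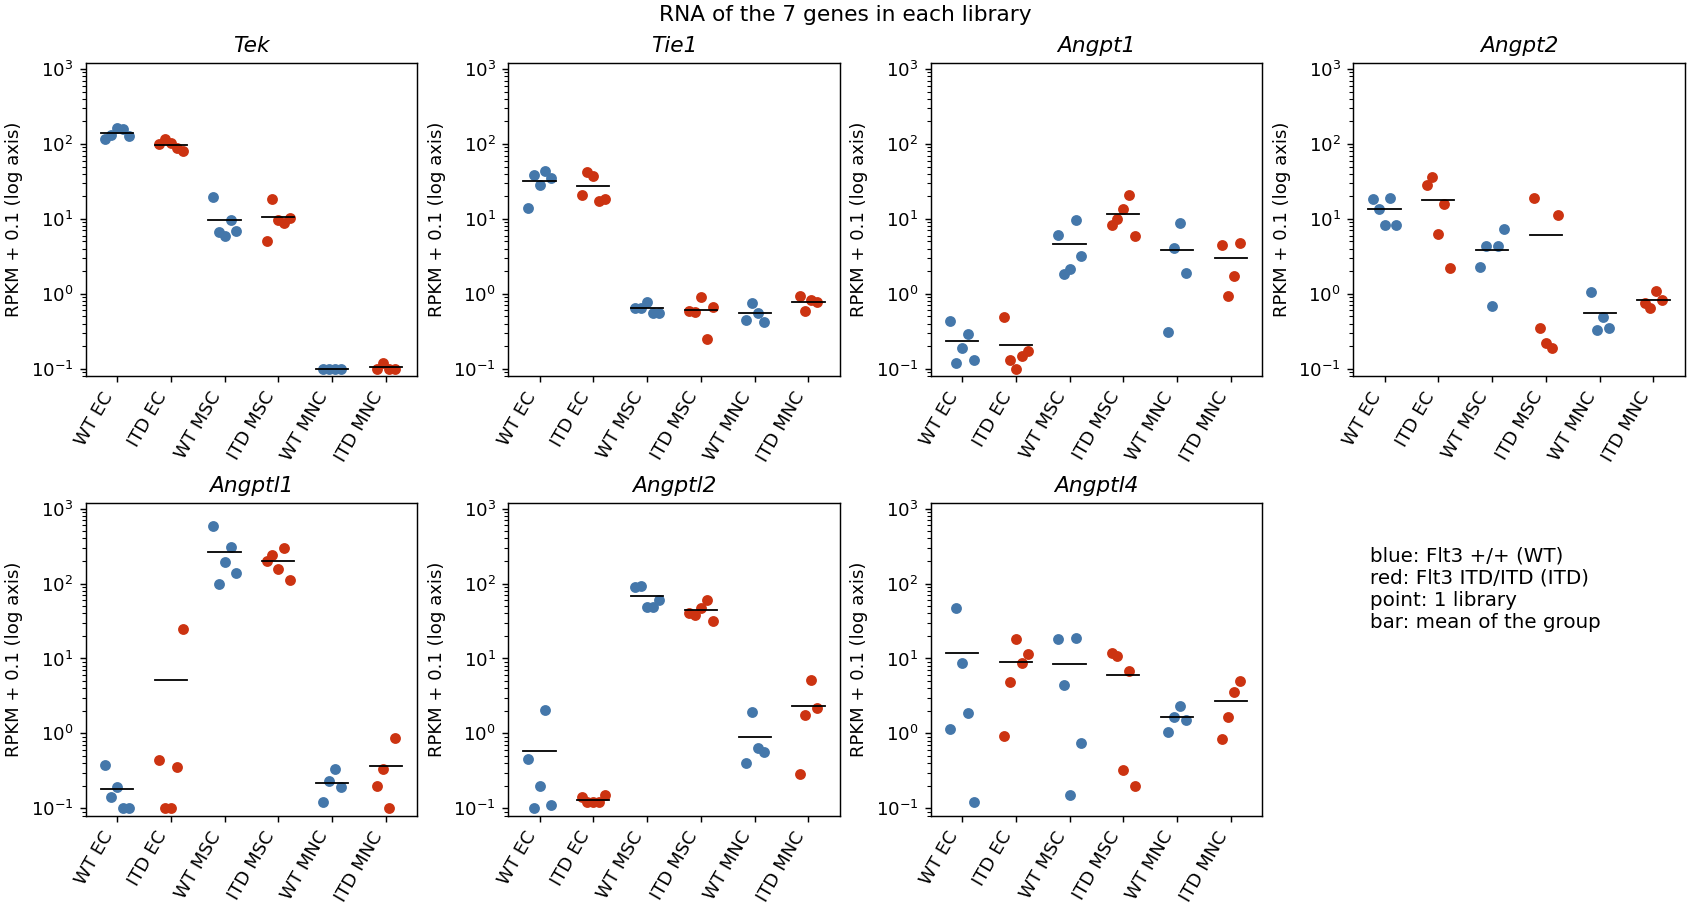
RPKM + 0.1 of each of the 7 genes on a log axis in the 6 groups of libraries. Points are libraries, bars are group means, and Flt3 +/+ is blue and Flt3 ITD/ITD red. Tek and Tie1 are highest in ECs, Angptl1 and Angptl2 in MSCs, and Angptl4 spans 0.02 to 46.51 RPKM within Flt3 +/+ ECs.

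Tek was the most abundant of the 7 genes in ECs, where its mean of 119 RPKM ranked 796 of 23493 detected genes. Flt3 +/+ EC replicates 1 to 5 had 116.11, 132.12, 161.98, 158.82 and 128.11 RPKM (139 ± 20.1, mean ± SD, n = 5), and Flt3 ITD/ITD EC replicates had 100.7, 116.97, 103.99, 87.56 and 79.82 RPKM (97.8 ± 14.5, n = 5). All 10 EC libraries lay above every MSC library. In MSCs Tek was at 9.68 ± 5.73 RPKM in Flt3 +/+ (n = 5) and 10.4 ± 4.92 RPKM in Flt3 ITD/ITD (n = 5), with libraries between 4.94 and 19.62 RPKM. The fold of mean RPKM between ECs and MSCs was 11.8. In Flt3 +/+ MNCs, Tek had 0 counts in all 4 libraries, and in Flt3 ITD/ITD MNCs 2 counts in replicate 2 and 0 in the others. Against a floor of 3 counts per library, Tek was at least 3880-fold higher in Flt3 +/+ ECs than in Flt3 +/+ MNCs and at least 269-fold higher in Flt3 +/+ MSCs than in those MNCs. Against the 2 counts of the Flt3 ITD/ITD MNCs, the ratio of depth-scaled counts was 17300 for ECs (95% exact Poisson interval 4790 to 143000) and 1840 for MSCs (509 to 15200). Floors and intervals cover counting error only, since amplified reads are not independent molecules.

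Tie1 was at 29.5 RPKM in ECs, a lower level than Tek, and was nearly restricted to them. Flt3 +/+ EC replicates had 13.89, 38.65, 28.33, 42.95 and 35.24 RPKM (31.8 ± 11.4, n = 5), and Flt3 ITD/ITD EC replicates had 20.73, 42.44, 36.72, 17.3 and 18.38 RPKM (27.1 ± 11.6, n = 5). The genotypes overlapped, and all 10 EC libraries lay above every MSC and MNC library. Tie1 was between 0.15 and 0.81 RPKM in MSCs, with means of 0.542 ± 0.0942 RPKM in Flt3 +/+ and 0.5 ± 0.237 RPKM in Flt3 ITD/ITD (n = 5 each). MNCs had 0.448 ± 0.154 and 0.69 ± 0.147 RPKM (n = 4 each). The mean in ECs was 56.6 times that in MSCs and 51.8 times that in MNCs, while the MSC and MNC groups could not be separated.

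In MSCs Tek kept a larger share of its EC level than most endothelial markers did. Its MSC mean was 8.46% of its EC mean, and that of Tie1 was 1.77%. For VE-cadherin (Cdh5) the share was 0.0193%, for endomucin (Emcn) 0.00052%, for Egfl7 0.00123%, for the VEGF receptor Kdr 0.00696% and for Pecam1, which encodes the CD31 used in the sort, 0.088%. Of the 11 markers, Stab2, a scavenger receptor of sinusoids, had 1.66% and Erg, an ETS factor, 17.9%, and the other 9 were at or below 0.399%. Erg was uneven in MSCs (1.36 ± 3.0 RPKM), with 0 RPKM in 5 of 10 libraries and a maximum of 9.54 RPKM. Tek was at 4.94 RPKM or above in all 10. The share of Tek was above that of 10 of the 11 markers, and the junctional marker Cdh5 was at no more than 0.19 RPKM in any MSC library, against a mean of 213 RPKM in ECs. In bulk libraries, a few cells with a high level and many cells with a low level cannot be told apart.

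**Figure D2:**
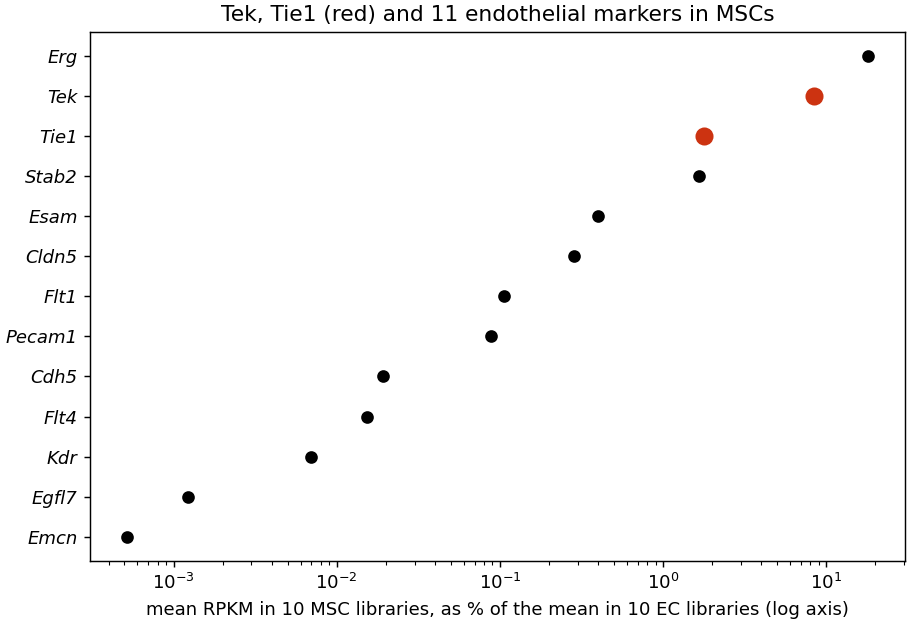
Mean RPKM in MSCs (n = 10) as a percentage of mean RPKM in ECs (n = 10), on a log axis, for Tek and Tie1 (red) and 11 endothelial markers. Tek at 8.46% lies above all markers shown but Erg (17.9%), which was at 0 RPKM in 5 of the 10 MSC libraries, and Emcn is lowest at 0.00052%.

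Angpt1, the ligand that activates Tek, was found in MSCs and MNCs and was near the floor in ECs. Flt3 +/+ MSC replicates had 6.06, 1.76, 2.07, 9.57 and 3.11 RPKM (4.51 ± 3.3, n = 5), and Flt3 ITD/ITD MSC replicates had 8.23, 9.95, 13.34, 20.75 and 5.77 RPKM (11.6 ± 5.81, n = 5). In MNCs the values were 0.21, 3.97, 8.77 and 1.8 RPKM in Flt3 +/+ (3.69 ± 3.72, n = 4) and 4.37, 0.83, 1.65 and 4.6 RPKM in Flt3 ITD/ITD (2.86 ± 1.91, n = 4). EC libraries had between 0 and 0.39 RPKM. Every MSC library was above every EC library, with means 66.6-fold apart, whereas MSC and MNC libraries overlapped.

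Angpt2, the context-dependent ligand, had its highest mean in ECs. Flt3 +/+ EC replicates had 18.51, 13.65, 8.22, 18.71 and 8.2 RPKM (13.5 ± 5.2, n = 5), and Flt3 ITD/ITD EC replicates had 28.27, 36.3, 6.19, 15.52 and 2.1 RPKM (17.7 ± 14.5, n = 5). MSCs had 2.21, 4.31, 0.58, 4.25 and 7.24 RPKM in Flt3 +/+ (3.72 ± 2.51, n = 5) and 18.69, 0.25, 0.12, 0.09 and 11.26 RPKM in Flt3 ITD/ITD (6.08 ± 8.53, n = 5). The Flt3 ITD/ITD MSCs fell into 2 libraries above and 3 below every Flt3 +/+ library. In MNCs Angpt2 was at 0.455 ± 0.338 and 0.73 ± 0.182 RPKM (n = 4 each). Its EC mean was 26.3 times the MNC mean with no overlap of libraries, but EC and MSC libraries overlapped.

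Angptl1 and Angptl2 were genes of the MSC gate. Angptl1 reached 593.79, 98.59, 195.49, 310.26 and 139.27 RPKM in Flt3 +/+ MSC replicates (267 ± 199, n = 5) and 199.93, 239.78, 156.41, 299.87 and 112.1 RPKM in Flt3 ITD/ITD MSC replicates (202 ± 72.7, n = 5). Its mean of 235 RPKM ranked 408 of 21155 detected genes in MSCs. Angptl1 was at 299.87 to 593.79 RPKM in the 3 MSC libraries with Xist and at 98.59 to 239.78 RPKM in the other 7. In MNCs it stayed at or below 0.76 RPKM, and in ECs at or below 0.34 RPKM but for 24.83 RPKM (1209 counts) in Flt3 ITD/ITD EC replicate 5. Angptl2 was at 88.87, 92.64, 49.22, 49.07 and 60.65 RPKM in Flt3 +/+ MSCs (68.1 ± 21.3, n = 5) and at 39.98, 37.91, 47.73, 61.12 and 31.88 RPKM in Flt3 ITD/ITD MSCs (43.7 ± 11.3, n = 5). It was at or below 0.36 RPKM in ECs but for 1.94 RPKM in Flt3 +/+ replicate 4, and in MNCs between 0.19 and 5.03 RPKM. MSC libraries lay above all others for both genes. The means differed 90.8-fold from ECs and 1200-fold from MNCs for Angptl1, and 218-fold and 36.9-fold for Angptl2. Both folds against ECs rest on 1 EC library, and they were 2090 without Flt3 ITD/ITD replicate 5 for Angptl1 and 812 without Flt3 +/+ replicate 4 for Angptl2.

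The single EC library with Angptl1 was examined further. Its 24.83 RPKM were 10.6% of the MSC mean, whereas Angptl7, a still more abundant MSC gene, was at 0.54 RPKM there (0.0436% of the MSC mean) and within the 0.27 to 0.65 RPKM of the other ECs. Angptl2 was at 0.05 RPKM. Ibsp (150.44 RPKM, at most 21.98 in other ECs) and Spp1 (216.9 RPKM, at most 16.4), both bone matrix genes, and Lum (22.29 RPKM, at most 1.02), a matrix proteoglycan, were also highest there. Lepr (99.64 RPKM, others 16.3 to 62.86) and Cxcl12 (300.01 RPKM, others 121.67 to 221.74), known from perivascular stroma, were likewise higher, while the stromal receptor Pdgfra (0.38 RPKM) was within the range of the other ECs (0 to 1.82). The part of other cells in this value was not tested.

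Angptl4, the lipoprotein lipase inhibitor, differed least between populations, with means of 10.2 RPKM in ECs, 7.17 RPKM in MSCs and 2.09 RPKM in MNCs. Flt3 +/+ EC replicates had 1.03, 46.51, 8.62, 1.79 and 0.02 RPKM (11.6 ± 19.8, n = 5), and Flt3 ITD/ITD EC replicates had 0.82, 4.8, 18.31, 8.62 and 11.2 RPKM (8.75 ± 6.63, n = 5). MSCs had 18.32, 4.31, 0.05, 18.71 and 0.64 RPKM in Flt3 +/+ (8.41 ± 9.37, n = 5) and 11.85, 10.74, 0.22, 6.73 and 0.1 RPKM in Flt3 ITD/ITD (5.93 ± 5.6, n = 5). In MNCs the range was narrower, 0.94, 1.55, 2.22 and 1.43 RPKM (1.54 ± 0.527, n = 4) and 0.74, 1.54, 3.42 and 4.85 RPKM (2.64 ± 1.85, n = 4). Ordered by mean, all neighboring groups overlapped.

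As Angptl1 did in MSCs, Angptl4 varied with Xist. In ECs it was at 8.62 to 46.51 RPKM (median 18.3) in the 3 libraries with Xist and at 0.02 to 11.2 RPKM (median 1.79) in the 7 without. In MSCs it was at 6.73 to 18.71 RPKM (median 18.3) in the 3 libraries with Xist and at 0.05 to 11.85 RPKM (median 0.64) in the other 7. The ranges overlapped in both populations. Among 13727 genes compared over the 28 libraries, Xist was the one whose log2 RPKM correlated best with that of Angptl4 (Pearson r = 0.704), followed by its antisense RNA Tsix (0.668) and Zdhhc1 (0.665). The 28 points share population and come from 3 cell types, so r is a description only. Libraries with Xist were 2 Flt3 +/+ and 1 Flt3 ITD/ITD in each of the 2 populations, and none was found in MNCs.

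**Figure D3:**
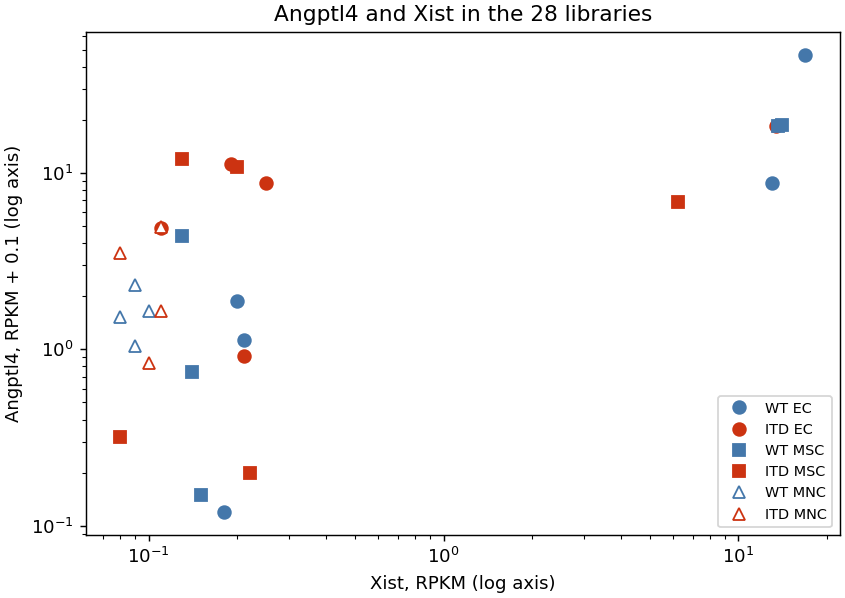
Angptl4 against Xist in RPKM, both on log axes, in 28 libraries by population and genotype. The 6 libraries at 6.22 RPKM of Xist or above have 6.73 to 46.51 RPKM of Angptl4, and the other 22 span 0.02 to 11.85 RPKM.

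The populations were compared across both genotypes by the quasi-likelihood test of edgeR. A call needed an adjusted p below 0.1 together with mean RPKM that differed by 1 or more on the log2 scale. Between ECs and MSCs, 2 of the 7 genes were called higher in ECs, against 16.3% of the 16897 genes tested, and 3 higher in MSCs, against 16.6%. Tek was higher in ECs by 3.31 (log2, SE 0.302, edgeR adjusted p = 1.55e-08) and Tie1 by 5.94 (SE 0.325, adjusted p = 2.97e-13). Angpt1 was lower in ECs, with a log2 difference of -6.56 (SE 0.898, adjusted p = 2.77e-06), as were Angptl2 with -9.12 (SE 0.876, adjusted p = 9.86e-09) and Angptl1, whose difference of -8.88 (SE 1.207, adjusted p = 2.53e-06) became -12.02 without the EC and MSC libraries that held other-cell markers and -11.60 without Flt3 ITD/ITD EC replicate 5 alone. Angpt2 missed the call, with 1.49 (SE 0.709, adjusted p = 0.112), and was called by DESeq2 (1.43, adjusted p = 0.0796), by limma-voom (2.55, adjusted p = 0.0086), with a replicate block (2.53, adjusted p = 0.0836) and without Flt3 ITD/ITD MSC replicate 1 (2.06, adjusted p = 0.029). It stayed uncalled under 7 of 11 other settings and in 16 of 20 fits with 1 library left out. Over the alternatives its adjusted p was between 0.0086 and 0.505. Angptl4 was not called (0.27, SE 0.936, adjusted p = 0.877).

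Against MNCs, 4 genes were called higher in ECs (23.1% of all genes) and 2 lower (22.0%). Tek and Tie1 were higher in ECs, Tie1 by 5.84 (SE 0.358, edgeR adjusted p = 1.72e-12), and the fitted difference for Tek (adjusted p = 7.14e-15) is no bound because MNCs were at or under the floor. Angpt2 was higher by 4.62 (SE 0.892, adjusted p = 0.000143). Angptl4 was higher by 2.21 (SE 1.064, adjusted p = 0.0929), a call that ended under 6 of 11 other settings and without any 1 of 11 of the 18 libraries. With only libraries without Xist the difference was 0.10 (adjusted p = 0.955), and without Flt3 +/+ EC replicate 2, the library with the highest Angptl4, it was 1.25 (adjusted p = 0.311). Angpt1 was lower in ECs (-5.30, SE 0.864, adjusted p = 1.79e-05) and so was Angptl2 (-3.58, SE 0.739, adjusted p = 0.000302), the latter not with Flt3 +/+ libraries alone (-0.90, adjusted p = 0.565). Angptl1 was not called (1.72, SE 1.174, adjusted p = 0.24), and without Flt3 ITD/ITD EC replicate 5 the difference was -0.98.

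Between MSCs and MNCs, 4 genes were called higher in MSCs (22.2% of all genes) and 0 lower (22.0%, where 0 of the 7 had an unadjusted p below 0.05 in that direction). Tek (adjusted p = 1.25e-13), Angptl1 (10.60, SE 1.427, edgeR adjusted p = 1.12e-06), Angptl2 (5.54, SE 0.806, adjusted p = 3.47e-06) and Angpt2 (3.14, SE 0.828, adjusted p = 0.00297) were higher in MSCs. The call for Angpt2 ended with limma-voom (1.67, adjusted p = 0.229), with a replicate block (1.80, adjusted p = 0.223) and with Flt3 ITD/ITD libraries alone (3.29, adjusted p = 0.116). Angpt1 (1.26, SE 0.758, adjusted p = 0.187), Angptl4 (1.94, SE 1.052, adjusted p = 0.14) and Tie1 (-0.10, SE 0.284, adjusted p = 0.812) were not called.

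**Figure D4:**
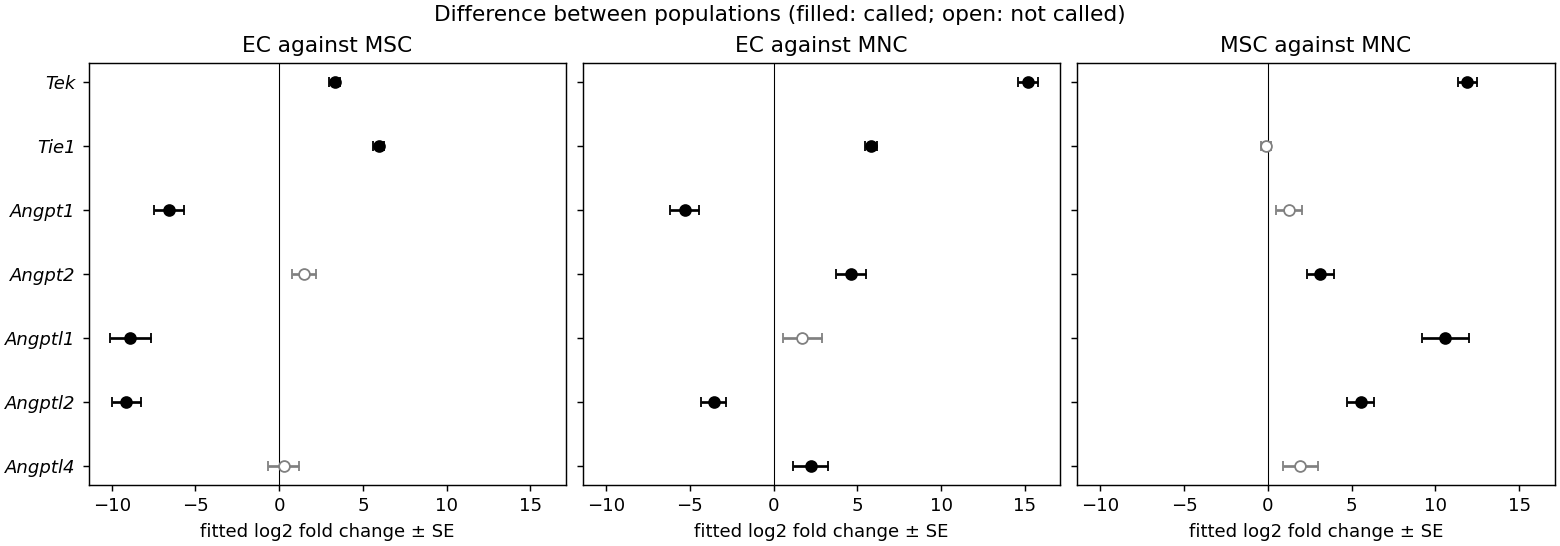
Fitted log2 differences with SE between populations for the 7 genes, on 1 scale in 3 panels, with filled points for called genes and open points for the others. Tek and Tie1 lie to the right in both comparisons of ECs, Angptl1 and Angptl2 on the MSC side in both comparisons of MSCs, and the Tek values against MNCs rest on 2 counts in MNCs.

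Genotypes were then compared within each population, the question of the study being whether niche cells differ in Flt3 ITD/ITD mice. None of the genes was called. In ECs 0 of 4 tested genes were called (0.0081% of 12351 genes), in MSCs 0 of 7 (0.0295% of 13574) and in MNCs 0 of 5 (0.0144% of 13926), with edgeR's quasi-likelihood test. DESeq2 also called 0 of them in each population, against 2.58%, 1.29% and 2.23% of all genes with an adjusted p in ECs, MSCs and MNCs, and edgeR's exact test 0, against 0.13%, 0.147% and 1.06%, the smallest DESeq2 adjusted p being 0.15, 0.257 and 0.472. At an unadjusted p below 0.05 in edgeR there was 1 gene in ECs (4.99% of all genes), 1 in MSCs (4.24%) and 0 in MNCs (10.4%). Angpt1, Angptl1 and Angptl2 in ECs and Tek and Angptl1 in MNCs were below the filter on low counts and entered only the fits without it. There, edgeR gave an unadjusted p below 0.05 for 3 of 7 genes in ECs (8.74% of all genes), and DESeq2 for 2 of 6 (6.77%). Angptl2 in ECs had a log2 difference of -3.80 without the filter (edgeR adjusted p = 0.56) and -3.94 with DESeq2 (adjusted p = 0.15, as for Tek), and its highest value was the 1.94 RPKM of Flt3 +/+ replicate 4. Angptl1 in ECs had 5.99 without the filter (edgeR adjusted p = 0.56), with 24.83 RPKM in Flt3 ITD/ITD replicate 5 and at most 0.34 RPKM in the others.

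Tek was the gene with an unadjusted p below 0.05 in ECs. Its mean was 139 RPKM in Flt3 +/+ and 97.8 RPKM in Flt3 ITD/ITD, and 4 of 5 Flt3 ITD/ITD libraries were below every Flt3 +/+ library. The exception was replicate 2, the EC library with the most leukocyte markers, while MNCs had at most 2 counts of Tek. In ECs the fitted log2 difference of Tek was -0.49 (SE 0.159, edgeR adjusted p = 0.903), and over the alternatives it lay between -0.58 and -0.41 with adjusted p from 0.15 to 1. An exact permutation test of mean RPKM, two-sided and 1 of 21 such tests (7 genes in 3 populations), gave p = 0.0159, where the smallest possible is 0.00794. Among libraries without Xist (3 Flt3 +/+ and 4 Flt3 ITD/ITD) the means were 134 ± 22.0 and 96.3 ± 16.3 RPKM (exact permutation p = 0.0857, smallest possible 0.0286). Without the 3 EC libraries that held other-cell markers they were 145 ± 17.6 and 97.4 ± 8.69 RPKM (exact permutation p = 0.0286, the smallest possible). In MSCs the log2 difference of Tek was 0.16 (SE 0.436), and the interaction between ECs and MSCs was -0.66 (SE 0.554, edgeR adjusted p = 0.831). Of 11 endothelial markers in ECs, 2 had an unadjusted edgeR p below 0.05 (4.99% of all genes). Their median log2 difference was -0.037, against -0.015 over all genes. The marker Cdh5 was at 225.14 to 251.75 RPKM in Flt3 +/+ ECs and at 164.74 to 206.19 RPKM in Flt3 ITD/ITD ECs.

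Angpt1 was the gene with an unadjusted p below 0.05 in MSCs. Its mean was 2.57 times as high in Flt3 ITD/ITD as in Flt3 +/+ MSCs, and 3 of 5 Flt3 ITD/ITD libraries were above every Flt3 +/+ library. Cxcl12, which stromal cells with Angpt1 are known to express, was at 85.25 to 362.82 RPKM in Flt3 +/+ and 163.3 to 981.24 RPKM in Flt3 ITD/ITD MSCs. It is 1 of the 12 mesenchymal markers, whose median log2 difference in MSCs was -0.04, against 0.03 over all genes. Of these 12 markers, 0 were called and 3 had an unadjusted edgeR p below 0.05 (4.24% of all genes). The adipocyte gene Adipoq was at 153.27 and 49.47 RPKM in Flt3 ITD/ITD replicates 4 and 2, at 18.6 RPKM in Flt3 +/+ replicate 4, and at or below 0.31 RPKM in the other MSC libraries. The other adipocyte genes listed were low in MSCs, with means of 1.33 RPKM for Fabp4, 0.007 for Plin1, 0.002 for Lep and 0 for Cidec and Cfd. Osteoblast markers were at 3280 to 9180 RPKM in Flt3 +/+ and 1210 to 6170 RPKM in Flt3 ITD/ITD. The part of cell composition in the difference of Angpt1 was not tested. The log2 difference was 1.52 (SE 0.557, edgeR adjusted p = 0.999), between 1.14 and 2.07 over the alternatives with adjusted p from 0.257 to 1. The exact permutation p was 0.0397, and it was between 0.0556 and 0.0952 without Flt3 +/+ replicate 1, 2, 3 or 5 or Flt3 ITD/ITD replicate 2, 3 or 4. Among libraries without Xist the values did not overlap, with 2.31 ± 0.707 RPKM in 3 Flt3 +/+ and 9.32 ± 3.18 RPKM in 4 Flt3 ITD/ITD libraries (exact permutation p = 0.0571). The 3 MSC libraries with Xist had 6.06 and 9.57 RPKM in Flt3 +/+ and 20.75 RPKM in Flt3 ITD/ITD. With Xist as a term the log2 difference was 1.96 (SE 0.373, edgeR adjusted p = 0.365), still not a call. In MNCs Angpt1 had a log2 difference of -0.68 (SE 0.966).

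Angptl2 in MSCs had means of 68.1 and 43.7 RPKM, with 4 of 5 Flt3 ITD/ITD libraries below every Flt3 +/+ library. The log2 difference was -0.57 (SE 0.264, edgeR adjusted p = 0.999), between -0.75 and -0.44 over the alternatives, and the exact permutation p was 0.0556. It was between 0.0317 and 0.127 when 1 library was left out, under 0.05 without Flt3 +/+ replicate 3 or 4 (0.0397) or Flt3 ITD/ITD replicate 4 (0.0317), and 0.127 without Flt3 ITD/ITD replicate 5, the MSC library with the most leukocyte markers (means 68.1 and 46.7 RPKM). Among libraries without Xist the means were 67.5 ± 22.5 and 39.4 ± 6.54 RPKM (exact permutation p = 0.0286, the smallest possible). Osteoblast markers summed to between 3280 and 9180 RPKM in Flt3 +/+ MSCs and between 1210 and 6170 RPKM in Flt3 ITD/ITD MSCs, and their part in the difference was not tested.

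**Figure D5:**
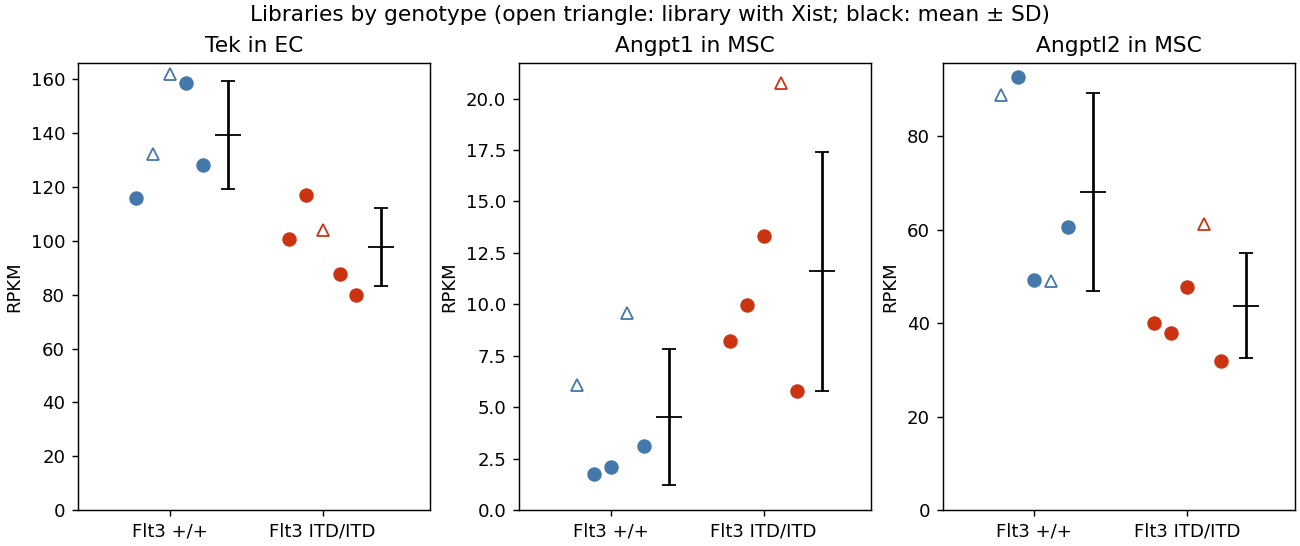
RPKM of Tek in ECs, Angpt1 in MSCs and Angptl2 in MSCs by genotype (5 libraries each), on linear axes, with mean ± SD in black and open triangles for libraries with Xist. The genotypes overlap in all 3 panels, with means of 139 and 97.8, 4.51 and 11.6, and 68.1 and 43.7 RPKM.

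In the edgeR fit with the filter, the other differences between genotypes had an unadjusted p of 0.05 or above. Angpt2 had log2 differences of 0.43 (SE 0.66) in ECs, 0.74 (SE 1.31) in MSCs and 0.52 (SE 0.524) in MNCs. Tie1 had -0.19 (SE 0.379) in ECs and 0.52 (SE 0.441) in MNCs, where 3 of 4 Flt3 ITD/ITD libraries were above every Flt3 +/+ library (exact permutation p = 0.0571). Angptl1 in MSCs had -0.36 (SE 0.471), and Angptl2 in MNCs had 1.41 (SE 0.88, edgeR adjusted p = 0.599). Angptl4 had -0.41 (SE 1.39) in ECs, -0.43 (SE 1.41) in MSCs and 0.50 (SE 0.591) in MNCs. Among libraries without Xist the direction for Angptl4 turned, with means of 0.947 and 6.36 RPKM in ECs (exact permutation p = 0.143) and 1.67 and 5.73 RPKM in MSCs (exact permutation p = 0.371). The direction also turned in MSCs for Angptl1, with means of 144 and 177 RPKM (exact permutation p = 0.429). For Tie1 in MSCs it turned as well, with 0.567 and 0.588 RPKM (exact permutation p = 0.8).

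Ratios of ligands or receptors were compared within libraries, with 0.1 RPKM added to each value. The log2 ratio of Tie1 to Tek in ECs was -2.22 ± 0.55 in Flt3 +/+ and -1.94 ± 0.42 in Flt3 ITD/ITD (exact permutation p = 0.413, n = 5 each). That of Angpt2 to Angpt1 in ECs was 5.94 ± 0.58 and 6.07 ± 1.61 (exact permutation p = 0.865), where Angpt1 was above 3 counts in only 4 of 10 libraries, so that the added 0.1 largely sets this ratio. Among MSCs the same ratio was -0.36 ± 1.45 and -3.09 ± 3.85, with Flt3 ITD/ITD libraries from -6.78 to 1.17 (exact permutation p = 0.143). Angptl4 to Angptl2 in MSCs gave -4.55 ± 2.87 and -4.25 ± 2.81 (exact permutation p = 0.857). All 4 ratios overlapped between genotypes.

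Whether the genotype difference itself varied between populations was tested as an interaction in the same edgeR model. Between ECs and MSCs 0 of the 7 genes were called (0.379% of all genes), between ECs and MNCs 0 (0.0118%) and between MSCs and MNCs 0 (0.00592%). At an unadjusted p below 0.05 there were 2, 2 and 0 of the 7, against 1788, 1391 and 1003 of all 16897 genes tested. The pair was Angptl1 and Angptl2 in both comparisons of ECs. For Angptl1 the interaction between ECs and MSCs was 6.42 (SE 1.963, edgeR adjusted p = 0.167) and fell to 0.93 without Flt3 ITD/ITD EC replicate 5. For Angptl2 it was -3.32 (SE 1.372, adjusted p = 0.347), and between ECs and MNCs it was -5.29 (SE 1.483, adjusted p = 0.315), with EC levels at or below 1.94 RPKM. Without Flt3 +/+ EC replicate 4 these were -1.28 and -3.24.

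Partners and downstream genes of the Tie receptors formed a list of 25 genes. By genotype, edgeR and DESeq2 called 0 in any population. In ECs 2 of 19 tested had an unadjusted p below 0.05 (4.99% of all genes), with a median log2 difference of -0.18 against -0.02 over all genes, and 1 of 20 did in MSCs (4.24% of all genes) and 3 of 21 in MNCs (10.4%). The EC pair was Ptprb, the phosphatase that dephosphorylates Tek, with 122 ± 20.2 RPKM in Flt3 +/+ and 94.3 ± 16.1 RPKM in Flt3 ITD/ITD (log2 -0.36, edgeR adjusted p = 0.935), and Rac1, a small GTPase (-0.53, adjusted p = 0.938). Between populations, 3 of 23 were called higher and 5 lower in ECs than in MSCs, against 16.3% and 16.6% of all genes. Ptprb was at 108 RPKM in ECs, 0.202 RPKM in MSCs and 0.0387 RPKM in MNCs. Nos3, the endothelial nitric oxide synthase, was at 8.48, 0.007 and 0.14 RPKM. Svep1, a matrix protein that binds Tie1, was at 10.4 RPKM in MSCs and 0.325 RPKM in MNCs. Dok2, an adaptor that binds Tek, and Pak1, a kinase, were MNC genes, with 13.6 and 25.7 RPKM there. In MSCs, Dok2 had 0 counts, so that it was at least 239-fold higher in Flt3 +/+ MNCs.

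Genes that bind or are acted on by angiopoietin-like proteins formed a list of 12. Gpihbp1, which anchors lipoprotein lipase on the endothelium, was at 2620 RPKM in ECs, had 0 counts in MSCs (at least 17100-fold lower in Flt3 +/+) and was at 0.00875 RPKM in MNCs. Cd36, the fatty acid transporter, was at 2290, 0.487 and 17.0 RPKM. Pirb, a receptor for Angptl2, was at 138 RPKM in MNCs, 0.135 RPKM in ECs and 0.177 RPKM in MSCs. Sdc4, a syndecan, was at 771 RPKM in MSCs and 7.82 RPKM in ECs. Between ECs and MSCs 3 were called higher and 5 lower of 12, against 16.3% and 16.6% of all genes. By genotype edgeR called 0, and an unadjusted p below 0.05 was found for 0 of 11 tested in ECs, for 1 of 8 among MSCs and for 2 of 11 among MNCs, against 4.99%, 4.24% and 10.4% of all genes. Lpl, the lipoprotein lipase that Angptl4 inhibits, had 29.9 ± 6.58 RPKM in Flt3 +/+ MSCs and 56.3 ± 19.0 RPKM in Flt3 ITD/ITD MSCs (log2 1.03, SE 0.3, edgeR adjusted p = 0.999). In MNCs, Lipg, an endothelial lipase, was at 1 ± 0.994 RPKM in Flt3 +/+ and 0.1 ± 0.092 RPKM in Flt3 ITD/ITD (log2 -3.45, edgeR adjusted p = 0.397), and it was called by DESeq2.

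Of 19 transcriptional regulators of the family, 8 of 18 tested were called higher and 0 lower in ECs than in MSCs, and 11 and 0 in ECs against MNCs. The shares over all genes were 16.3% and 16.6%, and 23.1% and 22.0%. Gata2 was at 54.8, 0.419 and 3.2 RPKM in ECs, MSCs and MNCs. Pparg, whose ligands induce Angptl4, was at 49.5, 1.82 and 1.26 RPKM, and Epas1, a hypoxia-inducible factor, at 152, 5.8 and 0.362 RPKM. Klf4 was higher in MSCs (219 RPKM) than in MNCs (27.5 RPKM). By genotype edgeR and DESeq2 called 0, and an unadjusted p below 0.05 was found in ECs for 2 of 17, in the other populations for 0 of 15 (MSCs) and 0 of 17 (MNCs), against 4.99%, 4.24% and 10.4% of all genes. In ECs Nr3c1, the glucocorticoid receptor, had 56.8 ± 13.7 and 35.8 ± 8.46 RPKM (log2 -0.72, edgeR adjusted p = 0.903) and Ets1 had 83.3 ± 22.1 and 121 ± 32.7 RPKM (log2 0.61, adjusted p = 0.927).

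Of 16 targets of hypoxia or PPAR signaling, which induce Angptl4, edgeR called 0 by genotype. Adm, the vasodilator peptide adrenomedullin, was at 50.1 ± 22.1 RPKM in Flt3 +/+ MSCs and 116 ± 40.2 RPKM in Flt3 ITD/ITD MSCs (log2 1.26, SE 0.36, edgeR adjusted p = 0.999), and DESeq2 called it. In ECs Cpt1a, which carries fatty acids into mitochondria, was at 11.4 ± 5.67 and 2.09 ± 1.86 RPKM (log2 -2.41, edgeR adjusted p = 0.927), and Ldha, a glycolytic enzyme, at 169 ± 43.0 and 262 ± 75.7 RPKM (log2 0.64, adjusted p = 0.927). Their median log2 difference in ECs was 0.49, against -0.02 over all genes, with 3 of 13 tested at an unadjusted p below 0.05, and there were 1 of 16 in MSCs and 2 of 14 in MNCs, against 4.99%, 4.24% and 10.4% of all genes. In MNCs DESeq2 also called Cd300lg (7.14 ± 2.35 and 20.8 ± 10.3 RPKM, log2 1.34, edgeR adjusted p = 0.397). Between ECs and MSCs 2 were called higher and 2 lower of 16, against 16.3% and 16.6% of all genes. Cd300lg was at 121 RPKM in ECs and 0.847 RPKM in MSCs, and Vegfa, the endothelial growth factor, at 3.33 and 8.6 RPKM.

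Other members of the family differed widely in level. Angptl7 was at 822.23 to 1807.89 RPKM in MSCs (1140 ± 272 in Flt3 +/+ and 1340 ± 370 in Flt3 ITD/ITD, n = 5 each), where it ranked 75 of 21155 detected genes, and at 0.27 to 0.65 RPKM in ECs. Its level in MSCs was higher than that of any of the 7 genes, and by genotype the log2 difference was 0.32 (SE 0.226, edgeR adjusted p = 0.999). Angptl6 was at 0 to 2.66 RPKM in MSCs, with 1.35 ± 1.26 RPKM in Flt3 +/+ and 0.168 ± 0.126 RPKM in Flt3 ITD/ITD (log2 -3.01, SE 1.49, edgeR adjusted p = 0.999), and at up to 9.02 RPKM in ECs. Angpt4 reached no more than 0.91 RPKM in any library. Angptl8, listed as Gm6484, was at up to 1.1 RPKM in MNCs and had 0 counts in all MSC libraries.

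The genes most like each of the 7 over the 28 libraries, by Pearson correlation of log2 RPKM, followed the populations that the libraries share. For Tek they were the tight junction genes Tjp1 (r = 0.986) and Jam2 (0.981) and the spectrin Sptbn1 (0.981), which like Tek are also above 5 RPKM in MSCs. For Tie1 they were Podxl (0.991), AK080982 (0.989) and Gpihbp1 (0.987), all at 0.004 RPKM or below in MSCs. Those of Angptl1 were Lum (0.988), Tmem45a (0.986) and Abca8a (0.985), and those of Angptl2 were AK196015 (0.99), Tmem119 (0.975) and Enpp1 (0.97). For Angpt1 they were Steap3 (0.888), Cercam (0.839) and Cd63 (0.837), and for Angpt2 they included AK214641 (0.852) and Slc50a1 (0.842).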

How the data were processed

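RNA was sequenced from 100 sorted ECs, 100 sorted MSCs or 200 MNCs per library as single-end reads of 51 bases after SMARTer amplification. The authors deposited estimated counts from RSEM, given as whole numbers, and RPKM to 2 decimals, after aligning reads with Bowtie to mm10 transcripts without keeping reads that had several matches. All 28 libraries and their columns were assigned from the labels, with 0 columns unmapped. Libraries of a group are separate samples in the labels, and p-values measure the spread between them. Depth (6377013 to 33880743 counts) was taken from the estimated counts, and 3 counts were the floor. Counts were tested with the quasi-likelihood test of edgeR 4.0.16 in R 4.3.3, with TMM normalization, filterByExpr and Benjamini-Hochberg adjustment over all genes tested. Population contrasts averaged both genotypes in 1 fit. The quasi-likelihood test reports no SE. Each SE given with it is the absolute log2 difference divided by the square root of its F statistic, an approximation. RPKM gave the levels and the exact two-sided permutation tests (scipy 1.17.1). Ratios used log2(RPKM + 0.1). DESeq2 1.42.0, edgeR's exact test, limma-voom (limma 3.58.1), other normalizations and filters, a replicate block and leaving out each library were alternatives. The script was tested on simulated data. The 7 genes and all lists were chosen with earlier results of these data known. Genes named from a list were the 3 with the smallest p by genotype and the 3 with the largest difference among called genes between populations, of which the text gives a part. For likeness, up to 3 genes were named for each of the 7 among genes with a mean of at least 1 RPKM. A few listed genes are not reported here. Single-cell, flow cytometry and transplantation data were not analysed here.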

Additional observations from a re-analysis of the deposited data

Results flagged for a closer look

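Of 41 groups of 4 or 5 libraries examined, 7 held a library whose gap to its nearest neighbor was beyond the 95% limit of Dixon's test relative to the range of its group. Chance gives about 1 in 20 groups for normally distributed values. RPKM near 0 are not so distributed, and a group with only 1 value above 0 is always flagged. The 7 of 41 therefore cannot be set against that rate. Angptl1 in Flt3 ITD/ITD EC replicate 5 was at 24.83 RPKM, with 0 to 0.34 RPKM in the other 4, and this library also held the most osteoblast markers among ECs (429 RPKM). Angptl4 in Flt3 +/+ EC replicate 2 was at 46.51 RPKM, with 0.02 to 8.62 RPKM in the others, and this library is among those with Xist. Tek in Flt3 +/+ MSC replicate 1, another library with Xist, was at 19.62 RPKM, with 5.79 to 9.51 RPKM in the others. Angptl2 was at 1.94 RPKM in Flt3 +/+ EC replicate 4 (0 to 0.36 in the others), where Lum (0.07 RPKM) and Angptl7 (0.51 RPKM) were not raised, and at 1.86 RPKM in Flt3 +/+ MNC replicate 2 (0.3 to 0.54 in the others). Angpt1 in Flt3 ITD/ITD EC replicate 1 was at 0.39 RPKM, with 0 to 0.07 RPKM in the others. Tek in Flt3 ITD/ITD MNC replicate 2 was at 0.02 RPKM, which is 2 counts and under the floor, with 0 in the others.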

How the results depend on the processing

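Over the alternatives the count of genes of the family called was 0 by genotype in every population, 5 to 6 between ECs and MSCs, 4 to 7 between ECs and MNCs and 3 to 5 between MSCs and MNCs. Of all 16897 genes tested, the main fits called 5551, 7609 and 7478 between these populations. With 1 library left out, the counts over all genes were 5345 to 5574, 7427 to 7663 and 7242 to 7500. The call for Angptl4 between ECs and MNCs was the one lost most often, and the cause of the changes below was not tested. Restriction to libraries without Xist, Xist as a term and leaving out libraries with other-cell markers were chosen after seeing the data. Replicate numbers are shared between groups. Deviations of same-numbered libraries correlated only between -0.136 and 0.089, and the main tests treated the libraries as unpaired. A correlation over many genes can miss pairing that affects few genes. For Flt3 +/+ replicates 1 to 4 and Flt3 ITD/ITD replicates 3 and 4, Xist was present in only 1 of the same-numbered EC and MSC libraries. Those EC and MSC libraries therefore cannot come from the same mouse, and a replicate block between populations does not pair mice there. In MNCs of both genotypes, immediate-early genes were higher in replicates 1 and 2 than in replicates 3 and 4. With a replicate block, the log2 differences by genotype were -0.09 for Angpt2 and 1.14 for Angptl4 in ECs and -1.77 for Angpt2 in MSCs, those between populations -0.75 for Angptl4 (ECs and MSCs) and -0.62 for Angptl1 (ECs and MNCs), the exact permutation p for Tek in ECs and Angpt1 in MSCs was 0.0625, the smallest that 5 pairs allow, so that the count under 0.05, 1 without the block, was bound to be 0, and 0 of all genes were called by genotype in each population. Of all genes, edgeR called 1 in ECs, 4 in MSCs and 2 in MNCs, DESeq2 called 362, 193 and 327 and edgeR's exact test 16, 20 and 148. Without the filter the counts were 0 in ECs and 2 in MSCs. With libraries without Xist, or without those holding other-cell markers, they were 0 in both, and with Xist as a term 0 and 2. With Flt3 ITD/ITD libraries alone 3599 genes were called between ECs and MSCs (5551 in all libraries) and 4839 between MSCs and MNCs (7478), and the interaction between ECs and MSCs gave 12 genes in place of 64 without the filter.

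On log2 scales the difference by genotype turned for Angpt2 in ECs (-0.0499 with a pseudocount of 1 and -0.115 with 0.1) and in MSCs (-0.332 and -1.23), for Angptl4 in ECs (0.636 and 1.26) and for Angpt1 in MNCs (0.171 with 0.1), and 2 genes in MSCs then had an exact permutation p under 0.05. The log2 ratio of Angpt2 to Angpt1 in ECs differed by -0.013 with a pseudocount of 1. Without Xist libraries the RPKM difference was 5.41 for Angptl4 in ECs, and in MSCs 4.06 for Angptl4, 32.6 for Angptl1 and 0.0208 for Tie1, and 0 genes had an exact permutation p under 0.05 in ECs. Fitted log2 differences were then 2.83 for Angptl4 in ECs (2.13 with Xist as a term) and in MSCs 1.86 (1.19) for Angptl4, 0.31 (0.10) for Angptl1 and 0.09 for Tie1, and -0.62 for Angptl4 between ECs and MSCs. Without other-cell libraries Angpt1 in ECs differed by 0.0642 RPKM. The difference of Angptl1 between ECs and MNCs was -0.46 with limma-voom, -0.75 with Flt3 +/+ libraries alone and -1.31 without other-cell libraries. That of Tie1 between MSCs and MNCs was 0.24 with Flt3 +/+ libraries alone, 0.04 after thinning to the smallest total count and 0.04 without Xist libraries.

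Leaving out 1 library at a time moved RPKM differences by genotype from -0.0965 to 0.0255 for Angpt1, -0.438 to 8.11 for Angpt2 and -5.74 to 5.89 for Angptl4 in ECs. In MSCs the ranges were -0.788 to 3.86 for Angpt2, -1.28 to 3.2 for Tek, -0.12 to 0.0455 for Tie1, -108 to 15.7 for Angptl1 and -4.57 to 0.098 for Angptl4, and in MNCs -1.98 to 0.869 for Angpt1 and -0.0075 to 0.246 for Angptl1. Fitted log2 differences ranged from -0.03 to 0.73 for Angpt2 and -0.87 to 1.59 for Angptl4 in ECs, from -0.35 to 1.11 for Angpt2, -0.59 to 0.19 for Angptl1, -0.81 to 0.10 for Angptl4, -0.17 to 0.60 for Tek and -0.32 to 0.15 for Tie1 in MSCs, and from -1.08 to 0.44 for Angpt1 in MNCs. Between populations they ranged from -0.71 to 0.54 for Angptl4 (ECs and MSCs), -0.98 to 2.25 for Angptl1 (ECs and MNCs) and -0.22 to 0.01 for Tie1 (MSCs and MNCs), and the interaction for Angptl1 between ECs and MNCs from -0.42 to 6.35. Genes with an exact permutation p under 0.05 numbered 1 to 2 in ECs, 0 to 2 in MSCs and 0 to 1 in MNCs. The permutation test was run on the 7 genes only, so no share over all genes stands beside such counts. The ratio of Angpt2 to Angpt1 in ECs differed by -0.386 to 0.723 and that of Angptl4 to Angptl2 in MSCs by -0.65 to 1.094. Of all genes, 0 were called in ECs, 0 to 2 in MSCs and 0 to 1 in MNCs, and the interactions gave 3 to 125, 2 to 12 and 1 to 4. Libraries of 100 or 200 cells limit precision for genes near the floor, above all Angpt1, Angptl1 and Angptl2 in ECs and Tek in MNCs.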

Other observations

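Immediate-early genes, which respond within minutes to handling and stimulation, differed between MNC libraries, with 423 and 340 RPKM summed over 8 genes in Flt3 +/+ replicates 1 and 2 against 25.1 and 21.6 RPKM in replicates 3 and 4, and 422 and 264 RPKM against 31.0 and 19.3 RPKM in Flt3 ITD/ITD. ECs had 804 to 2640 RPKM and MSCs 1320 to 3700 RPKM. Erythroid markers varied from 3.08 to 1060 RPKM among Flt3 +/+ MNCs, and Angpt1 was lowest (0.21 RPKM) in replicate 1, the library with the least erythroid RNA, and highest (8.77 RPKM) in replicate 3, the library with the most. In Flt3 ITD/ITD MNCs the library with the most erythroid RNA (196 RPKM, replicate 2) had the lowest Angpt1 (0.83 RPKM). With 4 libraries per genotype no correlation is given.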
